A study of Mus musculus with 16 samples.

Results

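The 10 genes described here encode transcription regulators of the heart: Gata4, Gata6, Nkx2-5, Tbx5, Tbx20, Hand2, Mef2a, Myocd, Prdm16 and Hopx. They were taken as a named list from the 21883 protein-coding genes on chromosomes 1 to 19, X and Y. Every deposited ChIP-seq peak that overlapped the body of one of these genes, with 5 kb added on either side (the gene window), was counted. In all, 29 Meis1 peaks and 75 Hoxb13 peaks met this rule in 8 libraries.

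In ChIP-seq, an antibody pulls down a protein with the DNA it sits on, and the DNA is sequenced. The libraries came from ventricles of mice at postnatal day 15. The mice had received PBS (vehicle, here control) or paromomycin and neomycin together (Paro/Neo, aminoglycoside antibiotics, 150 mg/kg 2 times a day, intraperitoneally) from postnatal day 7 for 7 days. Each antibody, one against Meis1/2 and one against Hoxb13, has 2 control and 2 Paro/Neo libraries, and since each antibody was used on its own set of samples, antibody and set cannot be told apart. No genetic change is named for any group. The labels speak of ventricles of 2 hearts, which can mean a pool of 2 hearts or 1 heart per replicate, so a spread between libraries may be technical. The whole ventricle was used, so binding in fewer cells and weaker binding per cell cannot be told apart. Peak lists hold no expression values, and the tissue label was not checked against marker genes.

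Cardiac gene expression is set up by a small group of DNA-binding proteins that act together at shared enhancers and promoters. Zinc finger proteins (Gata4, Gata6), a homeodomain protein (Nkx2-5), T-box proteins (Tbx5, Tbx20), a basic helix-loop-helix protein (Hand2) and a MADS-box protein (Mef2a) bind DNA directly. Myocardin (Myocd) is a coactivator of serum response factor, Prdm16 is a zinc finger regulator required for normal growth of the ventricular wall, and Hopx is an atypical homeodomain protein that does not bind DNA itself. Meis1 and Hoxb13 are homeodomain factors studied as regulators of the exit of cardiomyocytes from the cell cycle after birth.

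RefSeq promoter windows of build GRCm38.p6 (the same coordinates as mm10) cover 250 bases before to 50 bases after a start site. They were found for 6 of the 10 genes (Nkx2-5, Tbx20, Hand2, Mef2a, Prdm16 and Hopx). The 3 windows below are those that peaks of at least 2 libraries of an antibody reached. Capitals mark the bases covered by the peaks of all 4 Meis1 libraries (Mef2a, chr7:67372809-67373108, minus strand), by the Hoxb13 peak of Paro/Neo replicate 2 (Hand2, chr8:57320733-57321032, plus strand) and by the Hoxb13 peaks of both control replicate 1 and Paro/Neo replicate 2 (Tbx20, chr9:24774254-24774553, minus strand).
Mef2a: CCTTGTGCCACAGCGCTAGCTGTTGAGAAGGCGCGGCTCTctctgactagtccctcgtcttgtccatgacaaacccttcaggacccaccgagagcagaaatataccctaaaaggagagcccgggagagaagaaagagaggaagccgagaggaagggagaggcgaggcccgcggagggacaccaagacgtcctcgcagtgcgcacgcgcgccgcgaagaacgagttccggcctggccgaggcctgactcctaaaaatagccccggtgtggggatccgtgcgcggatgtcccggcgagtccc
Hand2: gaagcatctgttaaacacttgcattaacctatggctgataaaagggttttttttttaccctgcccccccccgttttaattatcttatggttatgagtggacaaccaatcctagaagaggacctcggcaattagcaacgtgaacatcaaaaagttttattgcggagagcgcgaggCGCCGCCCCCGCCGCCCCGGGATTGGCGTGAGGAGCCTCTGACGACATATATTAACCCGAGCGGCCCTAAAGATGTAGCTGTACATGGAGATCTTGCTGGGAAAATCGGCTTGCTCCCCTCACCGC
Tbx20: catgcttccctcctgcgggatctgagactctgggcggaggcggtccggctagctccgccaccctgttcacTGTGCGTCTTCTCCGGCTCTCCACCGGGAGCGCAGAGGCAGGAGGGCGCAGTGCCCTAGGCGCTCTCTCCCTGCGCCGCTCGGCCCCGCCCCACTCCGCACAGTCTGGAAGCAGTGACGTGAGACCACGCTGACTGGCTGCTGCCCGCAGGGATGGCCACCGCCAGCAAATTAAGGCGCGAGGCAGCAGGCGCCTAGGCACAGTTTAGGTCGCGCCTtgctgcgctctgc

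The Mef2a window began, at its 5′ end, inside the Meis1 peaks: bases 1 to 40 were shared by all 4 libraries, and the peaks ran on upstream of the printed sequence. At Hand2 the Hoxb13 peak of Paro/Neo replicate 2 covered bases 175 to 300, while control replicate 1 reached only the last 4 bases. At Tbx20 bases 71 to 287 lay in the Hoxb13 peaks of both libraries. Motifs were searched on both strands of all 32817 distinct promoter windows: the Meis core TGACAG, found in 19.2% of windows, the Hox-TALE composite TGATTNAT, found in 3.22%, the Hoxb13 core CAATAAA, found in 4.6%, and the GATA motif AGATAA, found in 11.2%. The windows of Mef2a and Tbx20 held no match to any of these letters. The Hand2 window held CAATAAA on the minus strand at bases 154 to 160, upstream of the capitals, and AGATAA on the minus strand at bases 79 to 84. TGACAG occurred at Nkx2-5 alone among the 6 genes (bases 232 to 237 of its window, minus strand), where no Meis1 library had a peak.

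Meis1 peaks lay at 5 of the 10 genes, with 4 genes carrying a peak in at least 2 of the 4 Meis1 libraries: Myocd, Prdm16, Mef2a and Gata4. Over all protein-coding genes that share was 6.47%. Myocd, Prdm16 and Mef2a carried a region called in all 4 libraries, a property of 1.75% of all genes (a region is a set of peaks of one antibody that share at least 1 bp). Tbx5 had a peak in 1 library, and Gata6, Nkx2-5, Tbx20, Hand2 and Hopx had none. Sequencing depth is unknown, so a missing peak does not show missing binding.

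Hoxb13 peaks lay at all 10 genes, but at 6 of them in at least 2 libraries (Hand2, Tbx20, Mef2a, Myocd, Gata6 and Hopx), against 23.6% of all genes. Hand2 alone was called in all 4 Hoxb13 libraries (2.83% of all genes have a peak in all 4). Gata4, Nkx2-5, Tbx5 and Prdm16 had Hoxb13 peaks in Paro/Neo replicate 2 alone. That library has 16963 peaks, against 821 to 5202 in the other Hoxb13 lists, and 46.5% of all protein-coding genes carry one of them. Of the 58 Hoxb13 regions at the 10 genes, 48 were called in that library alone, as were 12540 of all 17634 Hoxb13 regions. Without it, 4 genes (Hand2, Tbx20, Mef2a and Myocd) had a peak in at least 2 libraries, against 6.7% of all genes, and 5 regions were called in at least 2, against 10 with it. With every Hoxb13 list held to its strongest 821 peaks, 2 genes (Hand2 and Tbx20) had a peak in at least 2 libraries, against 4.39% of all genes, and 2 regions were called in at least 2.

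**Figure D1:**
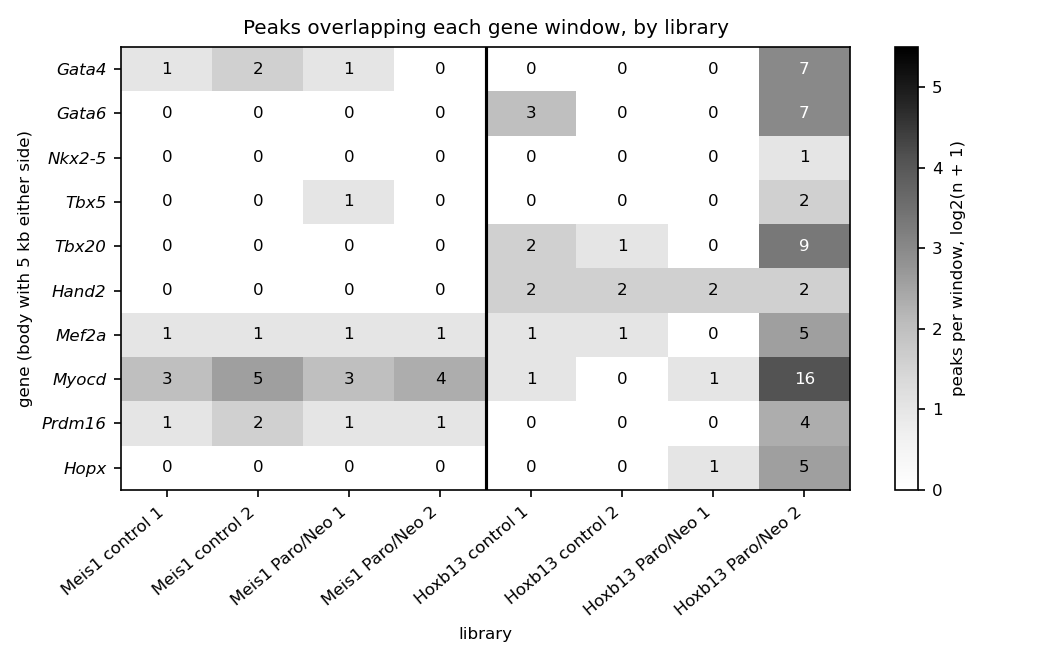
Number of peaks overlapping each gene window (rows) in each library (columns, Meis1 left and Hoxb13 right of the line); shading is log2 of the number plus 1. Myocd has 3 to 5 Meis1 peaks in each library, and the Hoxb13 column of Paro/Neo replicate 2 is the one column with no 0.

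The 10 genes are long, with a median of 63.1 kb against 17.2 kb for all protein-coding genes, and a longer window holds more peaks. Peaks were therefore also counted per Mb of window. Meis1 peaks at the 10 genes had a density of 6.32 and 10.5 per Mb in control replicates 1 and 2, and of 7.38 and 6.32 per Mb in Paro/Neo replicates 1 and 2. All gene windows together had 1.82, 1.66, 0.769 and 0.516 per Mb. The exact Poisson 95% intervals at the 10 genes ran from 2.32 to 13.8, from 5.05 to 19.4, from 2.97 to 15.2 and from 2.32 to 13.8 per Mb. They cover counting error only and treat peaks of one gene as independent. Myocd supplied 3 of 6, 5 of 10, 3 of 7 and 4 of 6 of these peaks. Hoxb13 densities at the 10 genes were 9.48 and 4.21 per Mb in control and 4.21 and 61.1 per Mb in Paro/Neo, where all gene windows had 4.05, 0.872, 0.640 and 12.2.

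**Figure D2:**
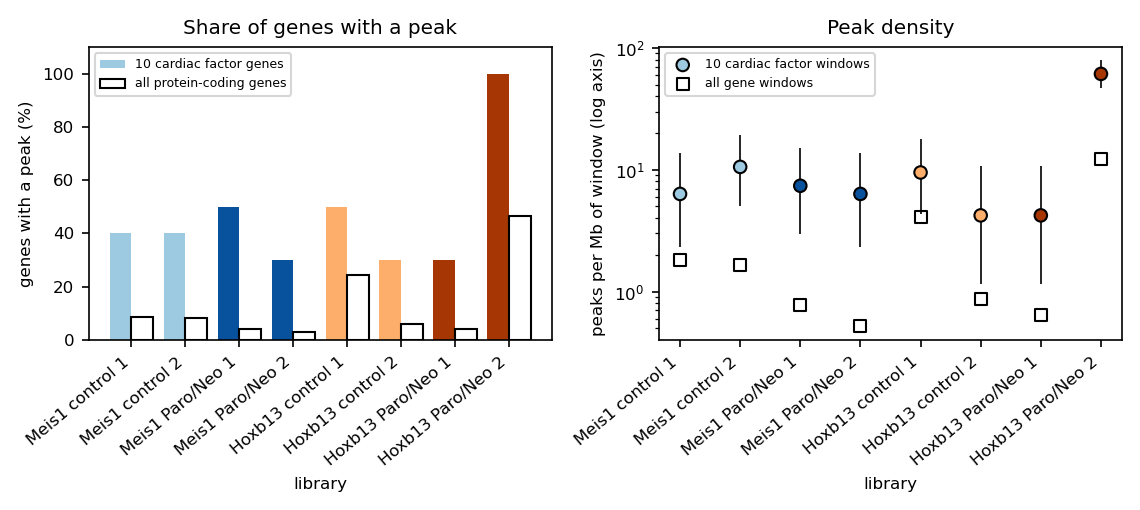
Left, percent of the 10 genes (coloured bars) and of all protein-coding genes (white bars) with a peak in each library. Right, peaks per Mb of window on a log axis (circles, the 10 genes, with exact Poisson 95% intervals; squares, all gene windows); the circles lie above the squares in all 8 libraries.

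Meis1 lists were shorter after Paro/Neo (1541 and 1025 peaks) than in control (3529 and 3176), and the comparison asks whether the drugs moved binding at these genes. Members with a Meis1 peak numbered 4 and 4 in control replicates 1 and 2, where 8.59% and 8.2% of all genes had one. They numbered 5 and 3 in Paro/Neo replicates 1 and 2, where 4.07% and 2.83% of all genes had one. The groups overlapped in this number and in the number of peaks, which was 6 and 10 in control and 7 and 6 in Paro/Neo. None of the 10 genes had a peak in both controls with none after Paro/Neo, against 2.07% of all genes, and none showed the reverse, against 0.0183%. With single regions in place of whole genes, 1 gene, Gata4, had a region in both controls and none after Paro/Neo by the labels, against 2.42% of all genes. With 2 libraries in each group an exact two-sided permutation test cannot give a p under 0.333, so no test was run on any member.

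For Hoxb13, members with a peak numbered 5 and 3 in control replicates 1 and 2 (24.2% and 5.79% of all genes) and 3 and 10 in Paro/Neo replicates 1 and 2 (4.2% and 46.5%). The groups overlapped, and the 2 longest lists gave the 2 highest numbers. Hopx was the 1 member with a peak in both Paro/Neo and in neither control library, against 0.133% of all genes, and no member showed the reverse, against 0.00457%. The file names of the replicate 2 Meis1 lists carry the letter of the other group. With these lists exchanged, the counts of members with a Meis1 peak in both libraries of one group and none of the other were still 0 and 0. The lists of one group then hold 3529 and 1025 peaks and those of the other 1541 and 3176, so that their lengths overlap. The Gata4 region, and Meis1 peaks beyond Hand2, would then fall in 1 library of each group, and 0 members have a region in both libraries of one group alone.

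Myocd (chromosome 11, 65173608 to 65269989) held the most Meis1 regions of the 10 genes. Peaks numbered 3, 5, 3 and 4 in control replicates 1 and 2 and Paro/Neo replicates 1 and 2, and fell into 6 regions, all within the gene. Of these, 4 were called in at least 2 libraries, a number reached by 10 of the 21883 protein-coding genes, Myocd included. These 4 lay 13.3 to 35.9 kb from the lower-coordinate end of the gene. The reference table gives no exons, so exon and intron were not assigned here.

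The widest Myocd region (chr11:65186932-65187909, 978 bp) was called in all 4 Meis1 libraries. Its peaks were 859 and 926 bp wide in control and 973 and 938 bp in Paro/Neo, where the median Meis1 peak is 255 to 260 bp wide. The deposited fold enrichment over local background, the authors' own value, was 4.87, 9.06, 7.07 and 9.34 in the same order of libraries. These folds ranked 1602 of 3529, 167 of 3176, 200 of 1541 and 37 of 1025 within their lists. Control replicate 1 was the low library, at percentile 54.6 of its list (100 is the strongest peak), and the others had this peak at percentiles from 87.1 to 96.5.

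The other Myocd regions called in at least 2 libraries were narrower. One (chr11:65205342-65205619) was called in every library but Paro/Neo replicate 2, at fold percentiles of 57.0, 83.7 and 65.0. Another (chr11:65209508-65209776) was called in every library but Paro/Neo replicate 1, at 54.6, 44.8 and 41.1. A further one (chr11:65196099-65196434) was called in every library but control replicate 1, at 25.2, 47.1 and 24.3. No Meis1 region at Myocd divided the libraries by treatment.

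The Hoxb13 region at Myocd called in more than 1 library did not touch a Meis1 region. As merged, it lies across the lower-coordinate end of the gene (chr11:65169962-65176474, 6513 bp). It was called in control replicate 1 and both Paro/Neo libraries, with peaks of 825, 189 and 6513 bp at percentiles of 49.6, 84.2 and 85.7. Only the peak of Paro/Neo replicate 2 reached the gene. Those of control replicate 1 and Paro/Neo replicate 1 lay 564 and 1163 bp below it. With the gene body alone as the window, Myocd had a Hoxb13 peak in 1 library. Control replicate 2 had no Hoxb13 peak at Myocd. The −log10 q was 1.41 in control replicate 1 and 2.60 and 3.25 in Paro/Neo replicates 1 and 2. With a minimum of 2, the region was thus called in the Paro/Neo libraries alone. The other Hoxb13 peaks there all came from Paro/Neo replicate 2, which had 16 at this gene, and they included the peaks over the 3 Meis1 regions that any Hoxb13 peak touched.

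Prdm16 (chromosome 4, 154316122 to 154637360), the longest of the 10 genes, carried the Meis1 region of highest mean rank. It lies within the gene (chr4:154393275-154393915, 641 bp), 77.2 kb from its lower-coordinate end. Peak widths were 605 and 551 bp in control and 470 and 255 bp in Paro/Neo. The folds were 10.8 and 13.0 in control and 7.54 and 5.58 in Paro/Neo, at ranks 80 of 3529, 32 of 3176, 152 of 1541 and 361 of 1025. The control folds lie above the Paro/Neo folds, but folds come from separately called lists and ranks from lists of different lengths, so no change is read from them. With the replicate 2 lists exchanged the folds would be 10.8 and 5.58 against 7.54 and 13.0, which overlap. A Meis1 peak elsewhere in the gene (chr4:154502559-154503319) was called in control replicate 2 alone, at percentile 41.4. The Hoxb13 peaks at Prdm16 numbered 4, all from Paro/Neo replicate 2, and the strongest (chr4:154497117-154497379) ranked 717 of 16963.

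**Figure D3:**
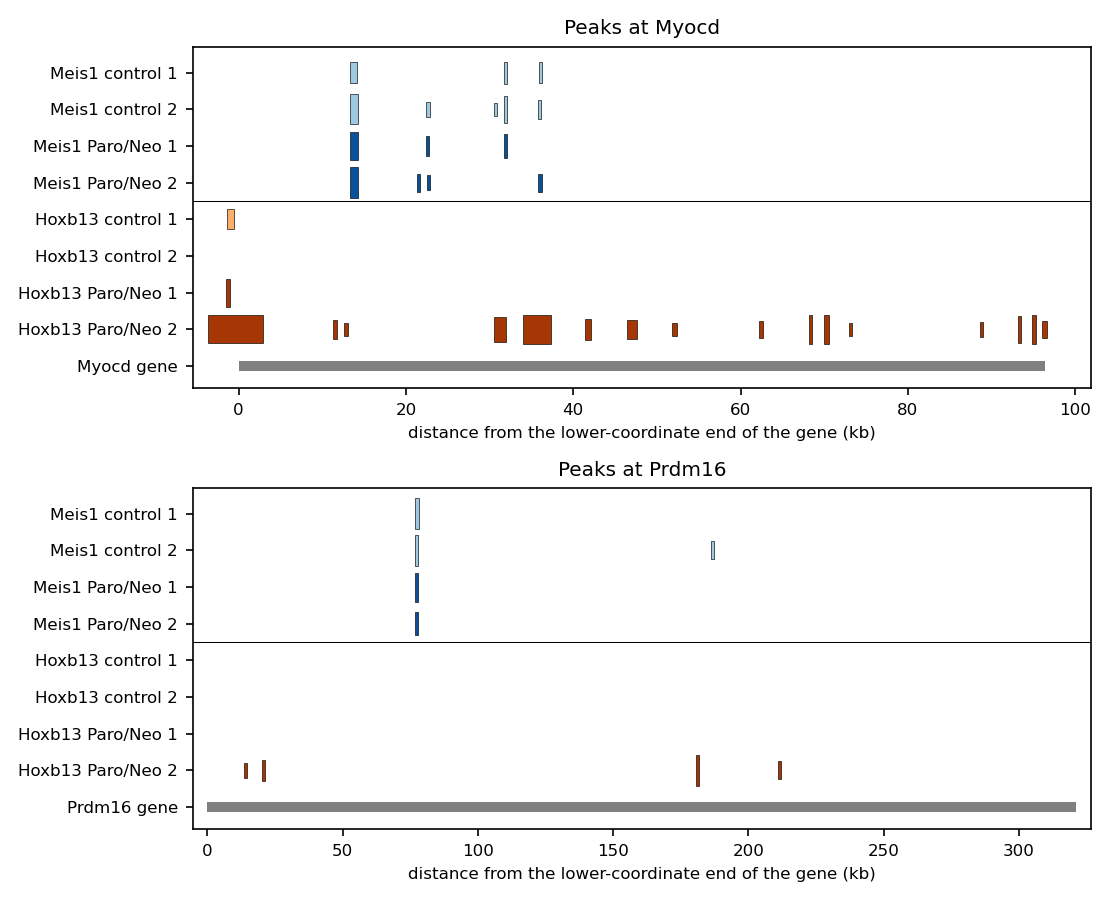
Peaks at Myocd (top) and Prdm16 (bottom) by library, against distance in kb from the lower-coordinate end of the gene (grey bar, the gene body). Bar height grows with the fold percentile of the peak in its own list, and narrow peaks are drawn wider than they are (0.4 kb at Myocd and 1.2 kb at Prdm16); 1 Meis1 position at each gene is filled in all 4 libraries.

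Mef2a (chromosome 7, 67231163 to 67376456) was the 1 member where a Meis1 region and a Hoxb13 region, each called in at least 2 libraries, overlapped (1.18% of all genes have such a pair). The Meis1 region lies just upstream of the start site whose promoter window is printed above, and the Hoxb13 region spans that start. Both are inside the gene body, since the annotated gene extends beyond that start. The Meis1 region (chr7:67372933-67373292, 360 bp) was called in all 4 libraries, with peaks of 360 and 281 bp in control and 195 and 314 bp in Paro/Neo. The stretch common to all 4 was 195 bp long. Peak centres lay 254.5 and 269 bp upstream of the start in control and 308 and 276.5 bp upstream in Paro/Neo. Folds were 6.20 and 5.60 in control and 4.49 and 3.99 in Paro/Neo, at percentiles of 79.7, 70.8, 35.0 and 16.4. As at Prdm16, these values come from separately called lists of different lengths, so no change is read from them. With the replicate 2 lists exchanged the folds would be 6.20 and 3.99 against 4.49 and 5.60, which overlap.

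Meis1 peaks rarely reached promoter windows. A peak overlapped the promoter window of 1.41% and 1.35% of the 17491 genes with such a window in control and of 0.44% and 0.423% in Paro/Neo, and Mef2a was the only one of the 6 members among them. Windows overlapped in all 4 Meis1 libraries belonged to 0.194% of genes. Hoxb13 peaks overlapped promoter windows of 3 and 1 of the 6 members in control, against 15.9% and 3.08% of genes, and of 0 and 5 in Paro/Neo, against 1.99% and 33.1%. The Hoxb13 region at the Mef2a start (chr7:67372625-67373445, 821 bp) was called in the controls and in Paro/Neo replicate 2. Its peaks were 636, 391 and 794 bp wide, at percentiles of 47.6, 12.9 and 50.8. The peak of control replicate 2 lay wholly upstream of that start, with its centre 304 bp before it. Paro/Neo replicate 1 had no Hoxb13 peak at Mef2a, and none of the 4 libraries had one there among its strongest 821 peaks, so the overlap was then lost. Overlap by Meis1 in all 4 and by Hoxb13 in at least 3 libraries was found at the promoter windows of 8 genes, 0.0457% of those examined. The antibodies were used on separate sets of samples, and a cause of the overlap was not tested.

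Gata4 (chromosome 14, 63198914 to 63271712) had weak Meis1 peaks at 3 places. The region outside the gene on its higher-coordinate side (chr14:63274072-63274465) was called in the control libraries alone, at percentiles of 39.9 and 8.91. Single peaks within the gene were called in control replicate 2 (chr14:63207115-63207316, percentile 21.4) and Paro/Neo replicate 1 (chr14:63210385-63210579, percentile 20.2). Paro/Neo replicate 2 had no Meis1 peak there, and none of the 4 libraries had one among its strongest 1025 peaks. Tbx5 (chromosome 5, 119796514 to 119885220) had a single Meis1 peak, in Paro/Neo replicate 1 (chr5:119862615-119862822, percentile 58.9).

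Hand2 (chromosome 8, 57320983 to 57324517), at 3.535 kb the shortest of the 10 genes, was covered over much of its length by Hoxb13 peaks. The region (chr8:57320907-57324884, 3978 bp) was called in all 4 Hoxb13 libraries, with peaks of 3856 bp in control replicate 1, 1263 bp in control replicate 2 and 2907 bp in Paro/Neo replicate 2. Paro/Neo replicate 1, the shortest list, had 2 separate peaks there, of 479 and 195 bp. Fold percentiles of the strongest peak per library were 86.0 and 81.5 in control and 69.9 and 79.6 in Paro/Neo. The folds themselves were 3.90, 4.03, 3.83 and 3.52. They come from separately called lists, so no change is read from them.

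Except in Paro/Neo replicate 2, which started 76 bp before it, all these Hand2 peaks began after the start site: 46 and 81 bp downstream in control replicates 1 and 2, and 108 bp downstream in Paro/Neo replicate 1. A further Hoxb13 region beyond the end of the gene (chr8:57327256-57329373, 2118 bp) was called in the controls and in Paro/Neo replicate 2, with peaks of 1512, 320 and 2118 bp at percentiles of 75.5, 11.1 and 94.7. The windows of 3 long noncoding RNA genes also hold these regions: Hand2os1 the region over the gene, and Hdnr and Gm34030 the one beyond it. The peaks do not show to which gene they belong.

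Tbx20 (chromosome 9, 24720812 to 24774303) had a wide Hoxb13 region beyond its 3′ end (chr9:24716647-24719763, 3117 bp), called in the controls and in Paro/Neo replicate 2. Its peaks were 3117, 621 and 2722 bp wide, at percentiles of 61.1, 42.4 and 98.1, and in Paro/Neo replicate 2 it ranked 316 of 16963. The −log10 q was 1.67 and 1.30 in the controls and 6.68 in Paro/Neo replicate 2, so with a minimum of 2 Tbx20 had a peak in 1 library. The region over the start site (chr9:24774125-24774657) was weak, at percentiles of 2.33 in control replicate 1 and 13.5 in Paro/Neo replicate 2. Paro/Neo replicate 1 had no peak at Tbx20.

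**Figure D4:**
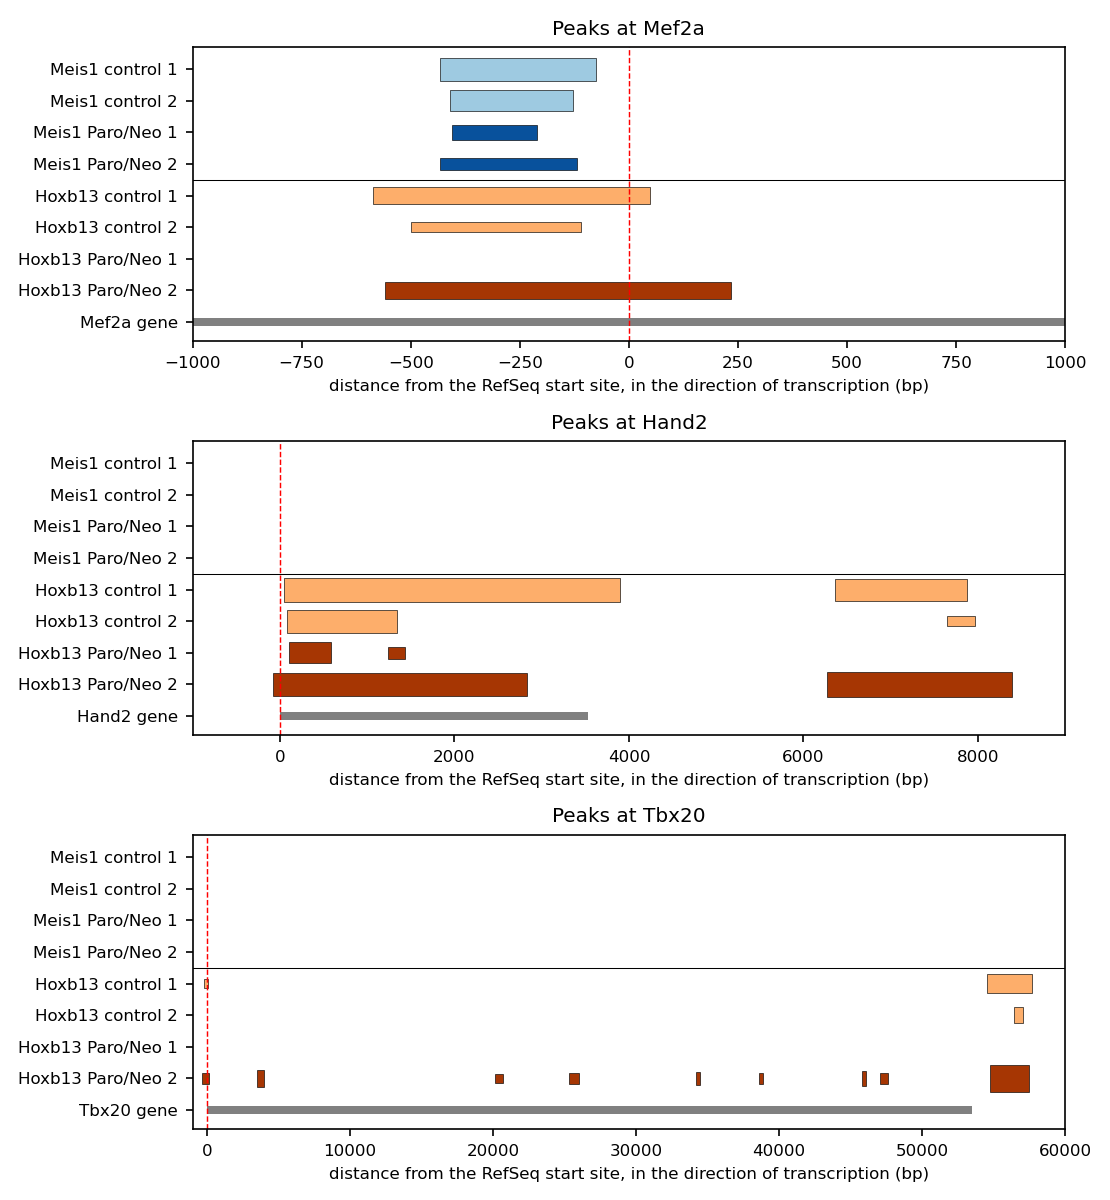
Peaks at Mef2a, Hand2 and Tbx20 by library, against distance in bp from the RefSeq start site (dashed line) in the direction of transcription; bar height grows with the fold percentile, peaks narrower than 0.4% of the axis are drawn at that width, and the grey bar is the gene body. Meis1 and Hoxb13 peaks share the stretch before the Mef2a start, whereas Hand2 and Tbx20 show Hoxb13 peaks alone.

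Gata6 (chromosome 18, 11052510 to 11085636) had 3 Hoxb13 regions called in control replicate 1 and Paro/Neo replicate 2, a number reached by 115 of all protein-coding genes. They lie across the lower-coordinate end of the gene (chr18:11051248-11053309), within it (chr18:11054192-11054494) and beyond its higher-coordinate end (chr18:11087569-11090081). Percentiles were 14.6, 46.5 and 36.1 in control replicate 1 and 50.2, 17.9 and 33.0 in Paro/Neo replicate 2, so all were of middle or low rank. The −log10 q was 1.62, 2.31 and 1.56 in control replicate 1 and 2.54, 1.63 and 1.67 in Paro/Neo replicate 2. With a minimum of 2, none of these regions was called in both libraries, though each library kept a peak at Gata6. The lncRNA Gata6os shares the first and second of these regions. Control replicate 2 and Paro/Neo replicate 1, the short lists, had no Hoxb13 peak at Gata6.

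Hopx (chromosome 5, 77086986 to 77115123) had a Hoxb13 region just outside its lower-coordinate end (chr5:77083798-77086919, 3122 bp), called in both Paro/Neo libraries and in neither control (0.169% of all genes have such a region). The peak was 424 bp wide and ranked 285 of 821 in Paro/Neo replicate 1, and it was 3122 bp wide and ranked 3292 of 16963 in Paro/Neo replicate 2. Another 4 Hoxb13 peaks lay within Hopx in Paro/Neo replicate 2, one of them over a promoter window (266 bp of overlap). With the gene body alone as the window, Hopx had peaks in 1 library and no member had Hoxb13 peaks in both Paro/Neo libraries and neither control.

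Nkx2-5 (chromosome 17, 26838664 to 26844988) had 1 Hoxb13 peak, in Paro/Neo replicate 2 (chr17:26841034-26841535), which covered 20 bases of its promoter window and ranked 14657 of 16963. Gata4 had 7 Hoxb13 peaks in that library, at percentiles from 30.2 to 72.3, and Tbx5 had 2, at 56.4 and 60.1. The Gata4 peaks at chr14:63193703-63193994 and chr14:63195145-63196918 lay below the gene, and also in the window of the protein-coding gene Neil2. The Tbx5 peak at percentile 60.1 lay beyond the higher-coordinate end of the gene. No other library had a Hoxb13 peak at Nkx2-5, Gata4 or Tbx5.

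Peaks at the 10 genes spanned nearly the whole range of ranks. Of the 29 Meis1 peaks, 15 ranked in the upper 50% of their own list by fold and 8 in the upper 25%. For Hoxb13 these numbers were 32 and 15 of 75. By position, 27 of the 29 Meis1 peaks lay inside a gene body and 2 outside. Of the 75 Hoxb13 peaks, 48 lay inside, 10 crossed a gene end, 11 lay below the lower-coordinate end and 6 above the higher one. Gene bodies, with a median of 63.1 kb against 5 kb added on either side, make up most of the windows. No preference for a position is therefore read from these numbers.

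**Figure D5:**
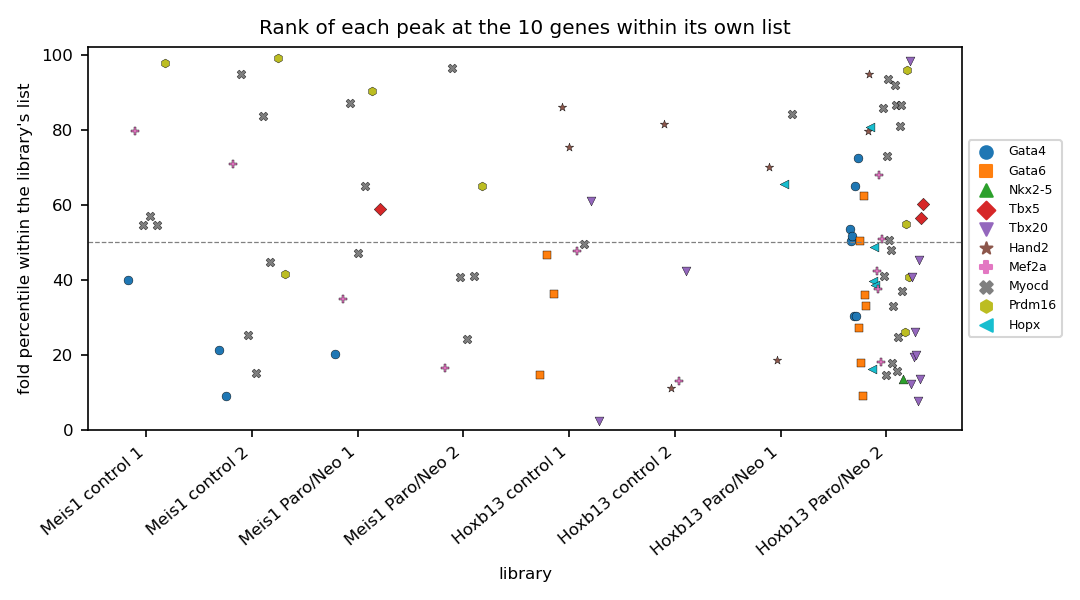
Fold percentile of each peak at the 10 genes within the list of its own library (100 is the strongest peak of a list, the dashed line marks 50), with a symbol for each gene. Prdm16 holds the top Meis1 point in the controls and in Paro/Neo replicate 1, and Myocd holds it in Paro/Neo replicate 2.

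With 10 kb windows, the number of libraries with a peak changed at Hand2 alone, from 0 to 2 for Meis1. The limit of 5 kb decided which peaks were counted. Just inside it lay a Hoxb13 peak 4.92 kb from Gata4 (percentile 53.4) and one 4.11 kb from Hand2 (11.1), and just outside a Hoxb13 peak 5.98 kb from Gata4 (17.7). A Meis1 site below Mef2a (chr7:67222326-67222675 in control replicate 2) lay 8.49 to 8.55 kb from the gene and was called in all 4 libraries, at percentiles of 82.6 and 97.6 in control and 89.6 and 87.4 in Paro/Neo. Beyond Hand2, Meis1 peaks lay 7.23 and 7.30 kb away in both controls, at percentiles of 85.6 and 18.4 in replicates 2 and 1, and in neither Paro/Neo library.

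A wider set of 24 other cardiac regulators was counted the same way. Meis1 peaks in at least 2 libraries were found at 5 of the 24, against 6.47% of all genes. A region in at least 3 libraries (3.37% of all genes) was found at Tbx18 and Mrtfa. Tbx18 is a T-box gene of the epicardium and sinus node, and Mrtfa is a coactivator of serum response factor. Hoxb13 peaks in at least 2 libraries lay at 13 of the 24, against 23.6% of all genes. All 13 had a peak in control replicate 1 and in Paro/Neo replicate 2, the 2 longest lists. Regions in at least 3 libraries (6.8% of all genes) lay at Tbx2, Mef2d, Hey1, Tead1 and Smyd1. At Mef2d, peaks of only 2 libraries lay in the gene window itself, and the region ran on beyond the window. Both antibodies overlapped at Srf (1.18% of all genes have such an overlap), the partner of myocardin, named after its values were seen. In both controls and neither Paro/Neo library, 2 of the 24 had a Meis1 peak, against 0 of the 10 and 2.07% of all genes.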

How the data were processed

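Per the submitters' processing notes, the tools were MACS2, HOMER, Bowtie2, FastQC 0.11.5 and Picard 1.127, and the build mm10. For options and control of the peak caller, nothing is given in the labels used here. The authors deposited 1 broad peak list per library, with fold enrichment (a ratio) and −log10 p and −log10 q per peak; the deposited score is the −log10 q times a constant and was not used further. The 8 inputs were not analysed here. The lists hold no depth.

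Peaks on chromosomes 1 to 19, X and Y were overlapped (at least 1 bp) with gene windows of a RefSeq table of GRCm38.p6 with Python 3.11.15, pandas 2.3.3 and numpy 2.4.6. Peaks were ranked by fold within their list and merged into regions per antibody. The interval functions were tested on simulated data. All 10 genes are named; regions named are those called in at least 2 libraries, or otherwise the highest-ranked peak, and further peaks were added after their values were seen. Other regulators are named where a region was called in at least 3 libraries. The genes, lists and alternatives were chosen with earlier results of these data known.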

Additional observations from a re-analysis of the deposited data

How the results depend on the processing

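Counts at the 10 genes were recomputed with stricter peaks (−log10 q of at least 2), lists of equal length (the strongest 1025 Meis1 and 821 Hoxb13 peaks), merging at 50% of the shorter peak, other windows, the exchanged Meis1 lists and each library left out. Of 90 recomputed counts, 74 stayed within 1.5 times, counts that stayed at 0 included. Some of these could not move. Merging does not alter members with a peak, and exchanging lists does not alter counts of at least 2 libraries. The 74 is thus no measure of how stable the results are. Members with a Hoxb13 peak in at least 2 libraries numbered 2 with equal lengths, and 4 to 6 with a library left out. Hoxb13 regions called in at least 2 libraries numbered 5 with stricter peaks, 2 with equal lengths, 6 with the gene body alone and 5 to 10 with a library left out (5 without Paro/Neo replicate 2, 6 without control replicate 1). Members with Hoxb13 peaks in both Paro/Neo and neither control library numbered 2 with stricter peaks, Hopx and Myocd. They numbered 0 with equal lengths and 0 with the gene body alone. With a library left out, the condition on its group rested on the 1 library that remained. Such members then numbered 1 to 5 (5 without Paro/Neo replicate 1, 2 without control replicate 1). The reverse numbered 0 to 2 (2 without Paro/Neo replicate 2). The 5 had a peak in Paro/Neo replicate 2, as did 46.5% of all genes, and in neither control. With 10 kb windows 1 member, Hand2, had Meis1 peaks in both controls and neither Paro/Neo library. With a library left out, where the remaining library again stood for its group, this count was 0 to 1 (1 without Paro/Neo replicate 1). Its reverse was 0 to 1 (1 without Paro/Neo replicate 2). Meis1 members and regions in at least 2 libraries numbered 4 and 6 to 7 with a library left out, and 3 and 5 with equal lengths, where Gata4 had a Meis1 peak in 0 libraries. With stricter peaks Tbx20 had a Hoxb13 peak in 1 library. The overlap of both antibodies at Mef2a was lost with equal lengths (0 members) and stood at 1 with each library left out. The cause was not tested. No paired analysis was possible because the results are counts of genes or regions over libraries, with no fitted value. With 2 libraries in each group, no test was run. Depth is unknown, so peak numbers can move with depth as well as binding.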

Other observations

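When Meis1 lists were held to an equal 1025 peaks, members with a Meis1 peak numbered 2 (replicate 1) and 3 (replicate 2) in control, and 4 (replicate 1) and 3 (replicate 2) after Paro/Neo. Of all protein-coding genes, 2.76% and 2.87% had a peak in the reduced control lists and 2.93% and 2.83% in the reduced Paro/Neo lists. Prdm16 and Mef2a were called in all 4 of these reduced lists, and Myocd in all but control replicate 1. Among the strongest 821 Hoxb13 peaks, Hand2 was called in the controls and in Paro/Neo replicate 1, whereas Paro/Neo replicate 2 held Tbx20 and Prdm16 in its place. In the reduced Hoxb13 lists from 4.2% to 4.71% of all protein-coding genes had a peak.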
